A study of Mus musculus with 6 samples.

Results

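The phase II conjugation enzymes were taken as the genes whose probe sets on the array carried exactly 1 symbol beginning with Gsta, Gstk, Gstm, Gsto, Gstp, Gstt, Mgst, Ugt1, Ugt2, Ugt3 or Sult. They came to 39 of 12393 genes, namely 20 glutathione transferases, 8 glucuronosyltransferases and 11 sulfotransferases. The rule itself used gene names alone, but it was set with earlier results of these data known. Each gene was read from its brightest probe set. RNA was measured in hepatocytes freshly isolated from wild-type C57BL/6 mice aged 3 weeks, stained with the DNA dye Hoechst 33342 and separated by DNA content in a cell sorter, with RNA taken straight after the sort. The groups were 3 arrays of tetraploid hepatocytes and 3 arrays of diploid hepatocytes, and both shared the strain, the age and the absence of any treatment. The comparison asked whether the enzymes of xenobiotic and hormone conjugation were expressed at different levels in hepatocytes with a duplicated genome than in diploid ones. Replicates are labelled as biological, but no label ties an array to an animal or litter, so a p-value reflects the scatter of these arrays and nothing wider. A sort on DNA content can also place diploid cells in G2 phase in the tetraploid gate.

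Phase II enzymes attach a polar group to a lipophilic compound so that it can leave the cell. Glutathione transferases join glutathione to electrophiles, UDP-glucuronosyltransferases transfer glucuronic acid from UDP-glucuronic acid, and sulfotransferases transfer sulfate from the activated donor PAPS. The liver is a main site of these reactions, though not of every member. Several of the enzymes are known to lie mainly around the central vein of the lobule or to differ between the sexes of adult mice. Several are also known to be induced through the transcription factor Nrf2 at a DNA motif called the antioxidant response element.

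Levels of the conjugation enzymes were close in the fractions, and 0 of the 35 members tested passed an adjusted p of 0.05 by limma, where 0 of all 9295 genes (0%) did. The smallest adjusted p among them was 0.779, for Gstt3. The other 4 members, Sult1c1, Sult2b1, Sult3a1 and Sult4a1, lay among the 25% of genes with the dimmest probe sets, below a log2 intensity of 5.06, and were not tested. At an unadjusted p under 0.05 there were 3 members (8.57%), against 6.18% of all genes tested. Of these, 1 was higher in tetraploid cells, where 2.32% of all genes were, and 2 were lower, where 3.85% were. The 3 tetraploid arrays did not overlap the 3 diploid arrays for 4 members (11.4%), against 12.3% of all genes. Of these 4, 1 was higher, where 5.22% of all genes were, and 3 were lower, where 7.08% were. Both shares are near those of the whole array. RMA, the normalization the authors used, gives arrays a common distribution, so a difference here is one of relative abundance, and fewer expressing cells cannot be told apart from less RNA per cell.

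The median log2 difference, tetraploid minus diploid, was 0.02 over the 35 members, against -0.006 over all genes tested. The means were higher in tetraploid cells for 18 members and lower for 17. Of the 35, 32 differed by less than 0.25 on the log2 scale (91.4%, against 93.7% of all genes). For 29 members (82.9%) the whole 95% interval of the difference lay within a 1.5-fold change in either direction, against 92.4% of all genes. The 6 whose interval was wider were Gstm3, Ugt2b37, Ugt2b38, Sult1d1, Sult1e1 and Sult5a1, and their residual SDs were at percentiles 88.6 to 99.2 of all genes tested.

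**Figure D1:**
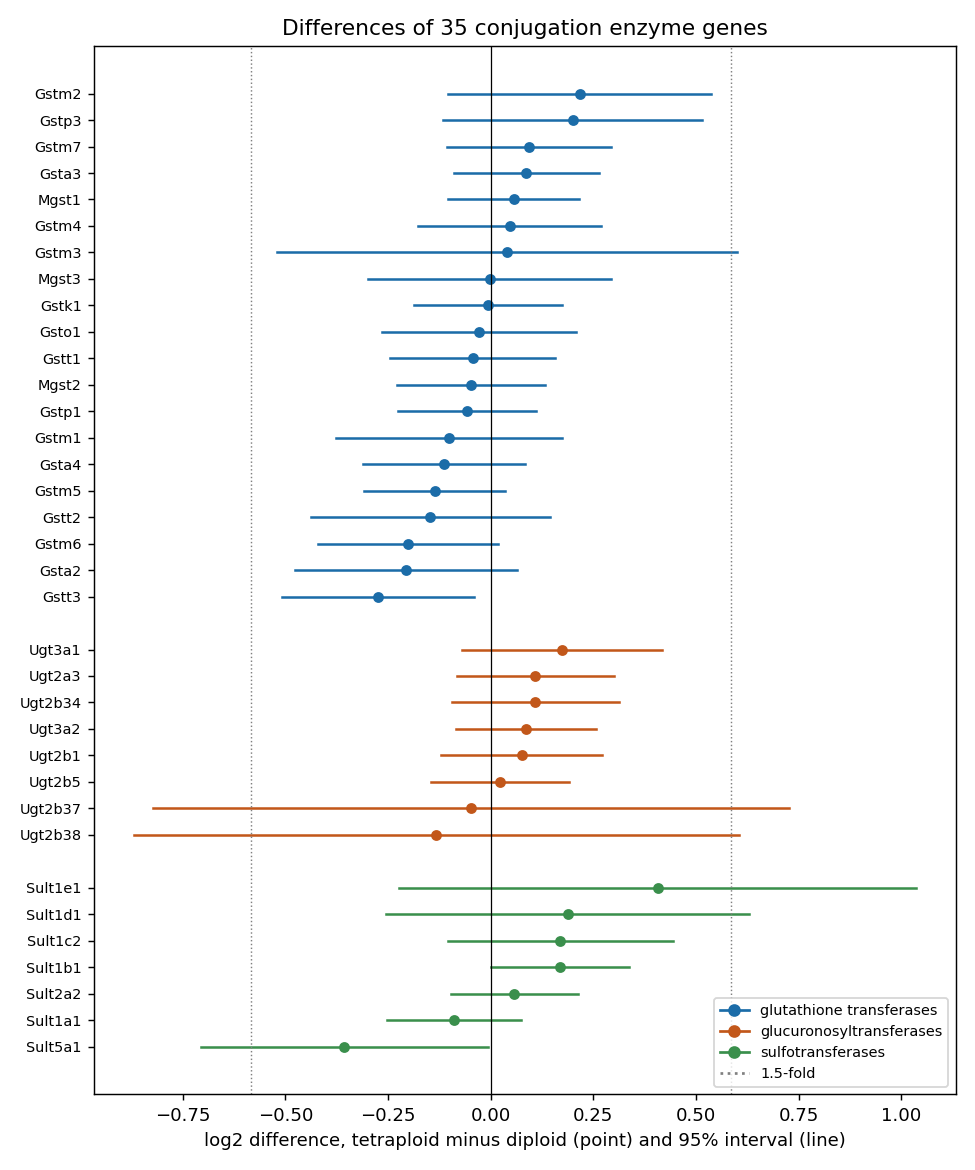
Log2 difference, tetraploid minus diploid, on the horizontal axis for each of the 35 conjugation genes tested, one row per gene, grouped by class from glutathione transferases at the top to sulfotransferases at the bottom. Points are limma estimates from 3 arrays per fraction, lines their 95% intervals and dotted lines a 1.5-fold change; the intervals of Gstt3, Sult5a1 and Sult1b1 leave out 0 before correction for the number of genes, and 0 genes passed after it.

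**Figure D2:**
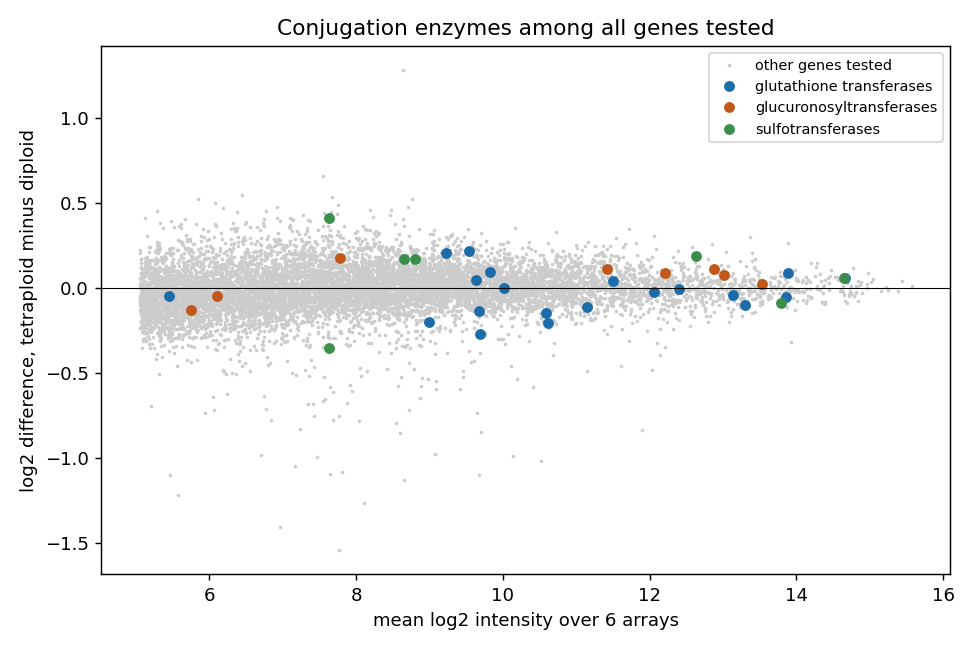
Log2 difference, tetraploid minus diploid, against the mean log2 intensity over 6 arrays for all 9295 genes tested. The 35 coloured conjugation genes lie between -0.36 and 0.41 inside the grey cloud of the other genes, which reaches from -1.55 to 1.28.

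Among the glutathione transferases 13 of 20 had a lower and 7 a higher mean in tetraploid cells, with a median log2 difference of -0.04. Without diploid replicate 1 the median was 0.01, so the class as a whole had no settled direction. The theta class had a lower mean in tetraploid cells for all 3 of its genes, Gstt1, Gstt2 and Gstt3, with a median of -0.15. The mu class divided into 4 higher and 3 lower, the alpha class into 1 higher and 2 lower and the pi class into 1 of each. Of the 20, 1 (5%), Gstt3, had an unadjusted p under 0.05 by limma, against 6.18% of all genes tested. The fractions did not overlap for 2 (10%), against 12.3% of all genes. Both shares are near those of the whole array.

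Short upstream sequences are shown for the members that hold the core of the antioxidant response element, because this motif is the textbook route by which electrophiles induce glutathione transferases. The core TGACNNNGC was searched on both strands of the 250 bases upstream of each RefSeq start and is in capitals.
Gsta3, chr1:21240448-21240488, plus strand: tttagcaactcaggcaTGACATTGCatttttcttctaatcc
Gstm5, chr3:107895796-107895836, plus strand: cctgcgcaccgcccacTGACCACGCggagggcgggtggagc
Gstm7, chr3:107931719-107931759, minus strand: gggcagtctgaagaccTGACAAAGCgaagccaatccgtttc
Mgst1, chr6:138140455-138140495, plus strand: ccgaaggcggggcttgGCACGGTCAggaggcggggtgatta
The motif was in the window of 4 of the 34 members with a RefSeq window, and in 10.2% of all 32851 windows. In Mgst1 it reads on the opposite strand. None of the 4 genes had an unadjusted p under 0.05, and their differences were 0.09 for Gsta3, -0.14 for Gstm5, 0.09 for Gstm7 and 0.06 for Mgst1. GTTAAT, part of the site of the liver factor HNF1, was found on either strand for 5 of the 34, Gsta3, Sult1a1, Sult1d1, Ugt2a3 and Ugt3a1, and in 6.43% of all windows. For both motifs members were counted once per gene, while the share over all windows was counted per window, so the units differ. Such matches describe letters only, and no binding was measured.

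Gstt3, a theta-class enzyme, had log2 intensities of 9.48, 9.46 and 9.71 on the tetraploid arrays, against 9.81, 9.96 and 9.71 on the diploid arrays. The fractions did not overlap, but the highest tetraploid and the lowest diploid value both rounded to 9.71. The log2 difference was -0.27 ± 0.10 (SE, n = 3 per fraction), a ratio of 0.827, with a 95% interval from -0.51 to -0.04 and an adjusted p = 0.779 by limma. It kept its sign when any 1 array was left out, between -0.35 and -0.21, and its unadjusted p of 0.0276 was above 0.05 without tetraploid replicate 1 or 2 or diploid replicate 1 or 2.

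The mu-class gene Gstm5 was the other glutathione transferase whose fractions did not overlap. Its values were 9.58, 9.68 and 9.57 in tetraploid cells, against 9.82, 9.72 and 9.71 in diploid cells, a difference of -0.14 ± 0.07 (SE) with an adjusted p = 0.839 by limma. Gstm6, also of the mu class, had 8.80, 8.87 and 9.02 in tetraploid cells, against 9.24, 9.01 and 9.05 in diploid cells. The highest tetraploid value, 9.02, lay just above the lowest diploid value, 9.01, and the difference was -0.20 ± 0.09 (SE), adjusted p = 0.810. Gsta2, an alpha-class enzyme, had 10.55, 10.66 and 10.32 in tetraploid cells, against 10.65, 10.61 and 10.88 in diploid cells, with a difference of -0.21 ± 0.12 (SE) and an adjusted p = 0.843 by limma. A probe set shared by Gsta1, Gsta2 and Gm3776, which the rule on symbols left out, ran the same way at -0.32 ± 0.13 (SE), with an unadjusted p of 0.0421 in a limma fit over all 22626 probe sets and overlapping fractions.

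The 3 brightest glutathione transferase probe sets differed by less than 0.1. Mgst1, an abundant enzyme of the endoplasmic reticulum and outer mitochondrial membrane, had 14.68 ± 0.05 in tetraploid and 14.63 ± 0.04 in diploid cells (SD, n = 3), a difference of 0.06 ± 0.07 (SE) with a 95% interval from -0.10 to 0.22. Gsta3, an alpha-class enzyme, averaged 13.93 ± 0.05 in tetraploid and 13.84 ± 0.09 in diploid cells (SD, n = 3), and its difference was 0.09 ± 0.08 (SE). Gstp1, of the pi class, averaged 13.83 ± 0.05 in tetraploid and 13.89 ± 0.06 in diploid cells (SD, n = 3), a difference of -0.06 ± 0.07 (SE). The Mgst1 probe set ranked 32 of 12393 genes by mean intensity.

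Gsta4, which conjugates the lipid peroxidation product 4-hydroxynonenal, differed by -0.11 ± 0.08 (SE). Gstm2, of the mu class, differed by 0.22 ± 0.14. Gstm1, also of the mu class, differed by -0.10 ± 0.12 on its brightest probe set, of a kind that can match several transcripts, and by -0.002, 0.008 and 0.04 on its 3 others. Over all members 5 of 12 second probe sets had the opposite sign to the one used. Gstk1, the kappa enzyme of mitochondria and peroxisomes, differed by -0.006 ± 0.077. Mgst2 and Mgst3, membrane enzymes able to form leukotriene C4, differed by -0.05 ± 0.08 and -0.003 ± 0.127, and Mgst2 was dim at 5.43 in tetraploid and 5.48 in diploid cells. Gsto1, an omega-class thioltransferase, depended on its probe set. The brighter one, of a kind that can match several transcripts, differed by -0.03 ± 0.10, while the other had 11.51, 11.58 and 11.47 in tetraploid cells, against 11.74, 11.69 and 11.72 in diploid cells, a difference of -0.19 ± 0.07 (SE) with fractions that did not overlap and an adjusted p = 0.703 by limma over all probe sets.

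Among the glucuronosyltransferases 6 of 8 had a higher mean in tetraploid cells, with a median log2 difference of 0.08, and 0 of 8 reached an unadjusted p under 0.05 or had fractions that did not overlap. Of all genes tested, 47.8% had a higher mean in tetraploid cells, 6.18% had an unadjusted p under 0.05 and 12.3% had fractions that did not overlap. Ugt2b5, Ugt2b1 and Ugt2b34, liver enzymes of the steroid- and drug-conjugating Ugt2b cluster, averaged 13.54 ± 0.04, 13.05 ± 0.04 and 12.93 ± 0.10 in tetraploid cells and 13.51 ± 0.07, 12.97 ± 0.12 and 12.82 ± 0.10 in diploid cells (SD, n = 3). Their differences were 0.02 ± 0.07, 0.08 ± 0.08 and 0.11 ± 0.09 (SE), and that of Ugt2b5 was -0.0054 without diploid replicate 1.

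Ugt3a1, whose family uses sugar donors other than UDP-glucuronic acid in humans, had the smallest unadjusted p of the class. Its values were 7.84, 7.79 and 7.99 in tetraploid cells, against 7.51, 7.77 and 7.82 in diploid cells, with a difference of 0.17 ± 0.10 (SE) and an adjusted p = 0.855 by limma. A second probe set for Ugt3a1 differed by 0.03. Ugt3a2 and Ugt2a3 differed by 0.09 ± 0.07 and 0.11 ± 0.08 (SE), with overlapping fractions. The Ugt1a enzymes, which conjugate bilirubin and many drugs, are made from 1 locus with shared 3' exons, and their 3 probe sets each carried 8 symbols and so fell outside the rule. Those probe sets differed by 0.03, 0.005 and 0.01, at mean log2 intensities of 13.46 to 13.74.

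The sulfotransferases were the most spread class. Of 7 tested members, 5 had a higher and 2 a lower mean in tetraploid cells, with a median log2 difference of 0.17. The median was 0.08 without tetraploid replicate 2 and 0.04 without diploid replicate 1, so its size rested on single arrays. Sult1b1, which sulfates thyroid hormones, and Sult5a1 each had fractions that did not overlap, in opposite directions. They were 2 of 7 tested members (28.6%), against 12.3% of all genes tested. The same 2 had an unadjusted p under 0.05 by limma, against 6.18% of all genes.

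Sult1b1 had 8.91, 8.93 and 8.83 in tetraploid cells, against 8.67, 8.70 and 8.79 in diploid cells. All tetraploid values were above all diploid values, and the difference was 0.17 ± 0.07 (SE), a ratio of 1.12, with an unadjusted p of 0.0498 and an adjusted p = 0.808 by limma. Its unadjusted p rose above 0.05 when any array other than tetraploid replicate 3 was left out, so it stood at the edge of that limit. Sult5a1 had 7.23, 7.51 and 7.61 in tetraploid cells, against 7.67, 8.10 and 7.65 in diploid cells, a difference of -0.36 ± 0.15 (SE), a ratio of 0.781, with an adjusted p = 0.801 by limma. Diploid replicate 2 stood above the other arrays, and the difference was -0.21 without it.

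Sult1e1, the estrogen sulfotransferase, had the largest difference of any member, at 0.41 ± 0.27 (SE), a ratio of 1.33, and it did not pass. Its values were 8.02, 8.19 and 7.29 in tetraploid cells, against 7.63, 6.97 and 7.68 in diploid cells. Tetraploid replicate 3 lay below 2 of the diploid arrays, and the 95% interval ran from -0.22 to 1.04 with an adjusted p = 0.860 by limma. The difference was 0.68 without tetraploid replicate 3 and 0.18 without diploid replicate 2. Sult1c2 differed by 0.17 ± 0.12 (SE).

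Sult2a2, of a bile acid and steroid sulfotransferase cluster, and Sult1a1, which sulfates phenols, had bright probe sets with little spread. Sult2a2 averaged 14.67 ± 0.03 in tetraploid and 14.61 ± 0.04 in diploid cells (SD, n = 3), a difference of 0.06 ± 0.07 (SE). Its cluster holds close paralogs, Sult2a1 among them, whose RNA the probes may bind too, and the share of this signal from Sult2a2 itself is unknown. Sult1a1 averaged 13.75 ± 0.06 in tetraploid and 13.84 ± 0.04 in diploid cells (SD, n = 3), a difference of -0.09 ± 0.07 (SE). Sult1d1, which sulfates catecholamines in mice, had 12.57, 12.95 and 12.67 in tetraploid cells, against 12.12, 12.67 and 12.83 in diploid cells. Diploid replicate 1 was the low array, and the difference of 0.19 ± 0.19 (SE) was -0.023 without it. The untested Sult1c1, Sult2b1, Sult3a1 and Sult4a1 had means of 4.04, 4.32, 4.09 and 4.86 in tetraploid cells and 4.17, 4.27, 4.07 and 4.88 in diploid cells, at the dim end of the array.

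**Figure D3:**
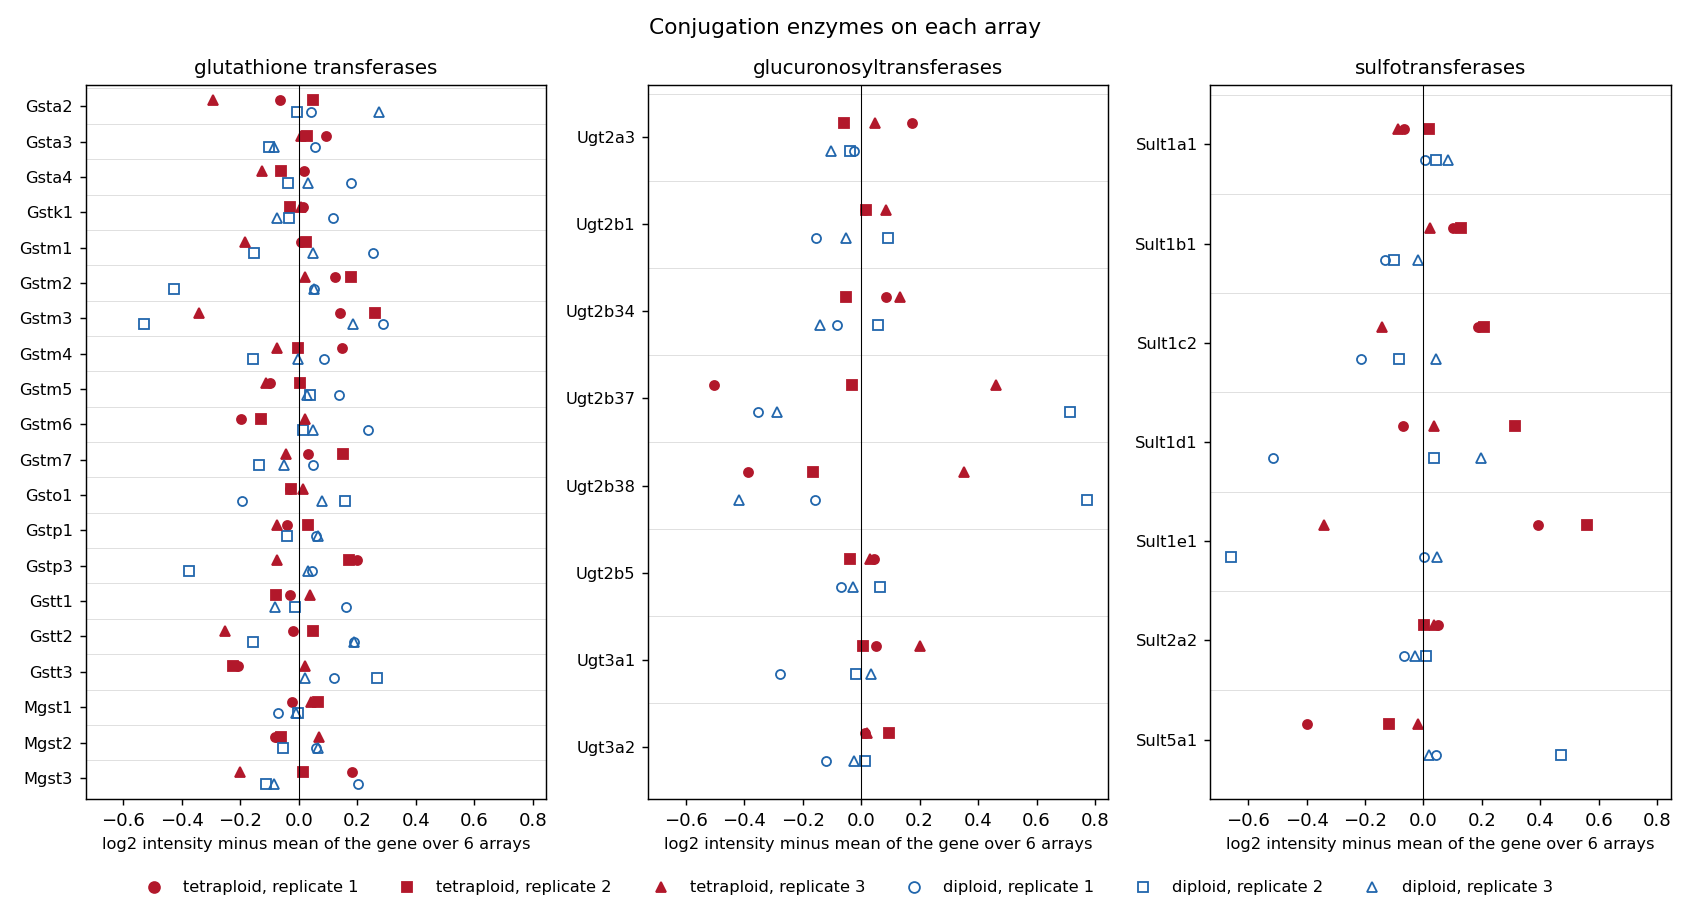
Log2 intensity minus the mean of the gene over 6 arrays for the 35 conjugation genes tested, with tetraploid arrays (filled red) above diploid arrays (open blue) in each row and the marker shape giving the replicate number. For most genes the colours mix, and for Gstm3, Ugt2b37, Ugt2b38 and Sult1e1 the spread within each fraction exceeds the gap between them.

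The members differed widely in how far they varied within a fraction. The difference between fractions was smaller than the residual SD for 17 of 35 members (48.6%), against 68% of all genes tested. The residual SD of the limma fit had a median of 0.12 over the 35 members and 0.12 over all genes tested. At one end, Sult2a2 at 0.03 and Mgst1 at 0.04 were at percentiles 2.07 and 4.64 of all genes. Both probe sets were very bright, at mean log2 intensities of 14.64 and 14.66. The 8 hepatocyte markers measured, mostly bright too, had a median residual SD of 0.05, and Alb read 15.57 on every tetraploid array. Whether the top of the intensity scale narrowed such spreads was not tested. At the other end, Ugt2b37 at 0.54, Ugt2b38 at 0.52, Sult1e1 at 0.44 and Gstm3 at 0.39 were at percentiles 99.2, 99.1, 98.6 and 97.8. The following pattern was noticed after the values were seen and is given as a description without a test.

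Gstm3, a mu-class enzyme, had 11.65, 11.77 and 11.17 in tetraploid cells, against 11.80, 10.98 and 11.69 in diploid cells. In each fraction 1 array was low, tetraploid replicate 3 and diploid replicate 2, and the fractions had nearly the same mean, with a difference of 0.04 ± 0.24 (SE). A second, dimmer probe set for Gstm3 had 7.75, 7.95 and 7.34 in tetraploid cells, against 8.02, 7.24 and 7.89 in diploid cells, with the same low arrays. Gstp3, of the pi class, had 9.42, 9.39 and 9.15 in tetraploid cells, against 9.26, 8.84 and 9.25 in diploid cells, again lowest on those arrays.

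Tetraploid replicate 3 was the lowest tetraploid array and diploid replicate 2 the lowest diploid array for 12 of 20 glutathione transferases, against 14.3% of all genes tested. The 12 were Gsta2, Gsta3, Gsta4, Gstm1, Gstm2, Gstm3, Gstm4, Gstm7, Gstp1, Gstp3, Gstt2 and Mgst3. With quantile normalization the count was 12, with each array centred on its median 11, and with the mean of all probe sets of a gene 9. Among the glucuronosyltransferases the same arrays were the highest of their fractions for 4 of 8, against 12.5% of all genes, namely Ugt2b1, Ugt2b34, Ugt2b37 and Ugt2b38. That count was 5 with quantile normalization or the mean of all probe sets and 4 with median centring. The pattern was not particular to this class. In the list of other conjugation and hydrolysis enzymes given below, the same arrays were the highest for 7 of 14 tested genes (50%).

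Ugt2b37 had 5.61, 6.07 and 6.57 in tetraploid cells, against 5.75, 6.82 and 5.82 in diploid cells. Ugt2b38, a close paralog, had 5.36, 5.59 and 6.10 in tetraploid cells, against 5.59, 6.53 and 5.34 in diploid cells. Both were brightest on tetraploid replicate 3 and diploid replicate 2, and their differences between fractions were -0.05 ± 0.33 and -0.13 ± 0.32 (SE). The windows of 250 bases upstream of the RefSeq transcription starts (GRCm38.p6, minus strand) show how near these paralogs are to each other. They are printed here with Ugt2b5, a member of the same cluster whose intensity moved little between arrays. Capitals mark bases that differ from Ugt2b38, or face a gap in it, within the aligned stretch, and ends that run past the Ugt2b38 window are in lower case.
Ugt2b38, chr5:87424204-87424453: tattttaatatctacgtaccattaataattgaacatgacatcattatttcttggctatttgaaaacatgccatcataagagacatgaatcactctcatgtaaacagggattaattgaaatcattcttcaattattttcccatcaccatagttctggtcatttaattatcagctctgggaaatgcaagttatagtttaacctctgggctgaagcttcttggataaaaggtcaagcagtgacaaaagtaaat
Ugt2b37, chr5:87254789-87255038: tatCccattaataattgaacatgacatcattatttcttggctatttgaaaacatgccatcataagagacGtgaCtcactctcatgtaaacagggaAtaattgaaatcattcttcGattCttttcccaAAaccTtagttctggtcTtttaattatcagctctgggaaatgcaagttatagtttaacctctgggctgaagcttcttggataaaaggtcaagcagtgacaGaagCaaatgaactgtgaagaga
Ugt2b5, chr5:87140341-87140590: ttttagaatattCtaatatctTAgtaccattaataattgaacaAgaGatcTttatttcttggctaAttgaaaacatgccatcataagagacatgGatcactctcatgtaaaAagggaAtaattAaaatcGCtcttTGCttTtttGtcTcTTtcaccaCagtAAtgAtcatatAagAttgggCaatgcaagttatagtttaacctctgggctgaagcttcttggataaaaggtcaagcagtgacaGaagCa
Over 238 aligned columns the Ugt2b37 window was 94.1% identical to that of Ugt2b38, and over 249 columns the Ugt2b5 window was 85.1% identical to it. Probe sequences were not used here, so whether the probe sets of Ugt2b37 and Ugt2b38 each read a single gene is unknown.

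**Figure D4:**
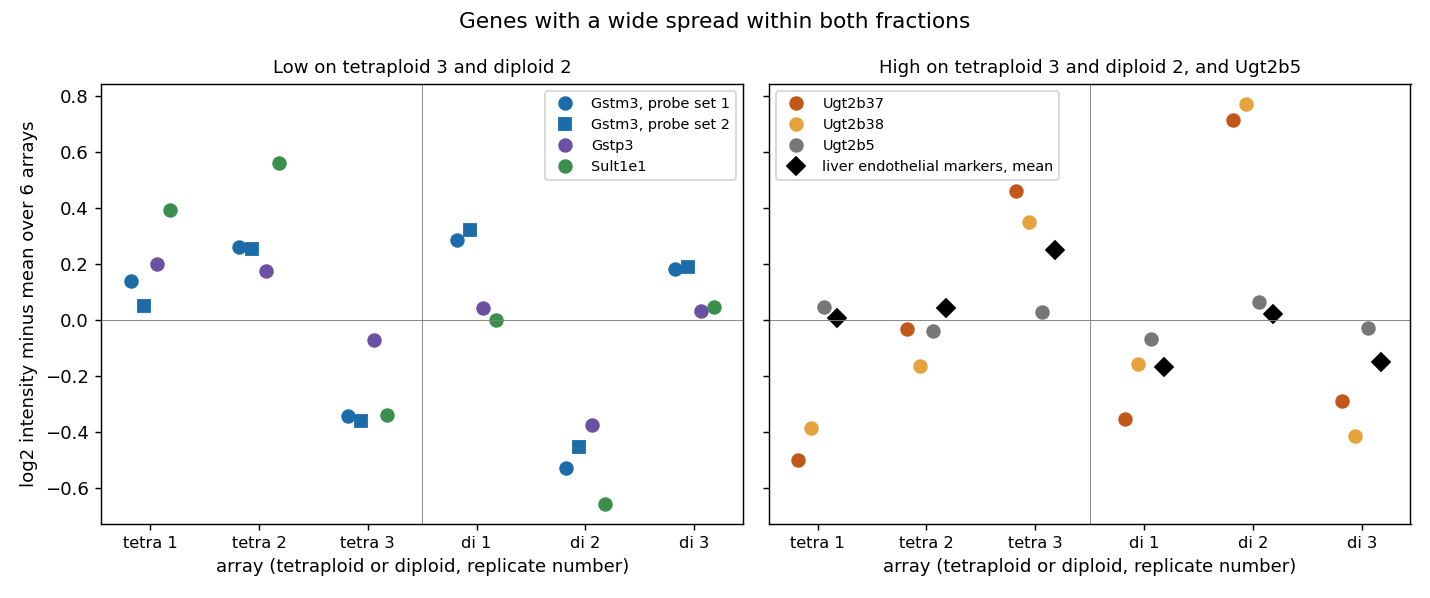
Log2 intensity minus the mean over 6 arrays, by array, for genes with a wide spread within both fractions. In the left panel Gstm3 (both probe sets), Gstp3 and Sult1e1 are lowest on tetraploid replicate 3 among the tetraploid and on diploid replicate 2 among the diploid arrays; in the right panel Ugt2b37, Ugt2b38 and the mean of the liver endothelial markers are highest there, while Ugt2b5 stays within 0.1 of its mean.

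Markers of liver endothelial cells were also mostly highest on these arrays. All 10 listed markers had a probe set, and their mean log2 intensity was 6.37, 6.41 and 6.61 on the tetraploid arrays, against 6.20, 6.39 and 6.22 on the diploid arrays. Of the 9 tested, 7 were highest on tetraploid replicate 3 and on diploid replicate 2 within their fractions, against 12.5% of all genes tested. A higher mean in tetraploid cells was found for 8, against 47.8% of all genes. Of these 8, 4 had an unadjusted p under 0.05 by limma, where 2.32% of all genes were higher at that limit. The median difference of the 9 was 0.34. None of the 9 passed the adjusted threshold (smallest adjusted p = 0.377 by limma, Aqp1), and Stab2 had a lower mean at -0.24. The defining marker Pecam1 was among the dim genes. The part of endothelial RNA in the members' values was not tested. The hepatocyte markers averaged 14.71 to 14.87 on the tetraploid arrays and 14.72 to 14.87 on the diploid arrays, 8 of 10 being measured. Markers of the position of hepatocytes in the lobule were set beside the members, since several are known to be zonated. Of 8 pericentral markers 6 had a higher and 2 a lower mean in tetraploid cells, with a median difference of 0.09. Oat at 0.26 ± 0.08 and Lgr5 at 0.29 ± 0.10 (SE) had an unadjusted p under 0.05 by limma, where 2.32% of all genes were higher. The 2 lower ones were Glul at -0.11 ± 0.11 and Rhbg at -0.06 ± 0.11 (SE). Of 5 periportal markers tested 3 had a higher and 2 a lower mean in tetraploid cells, with a median difference of 0.01. The 2 lower ones, Hal at -0.39 ± 0.10 and Cyp2f2 at -0.32 ± 0.08 (SE), had an unadjusted p under 0.05 by limma, where 3.85% of all genes were lower. None of the lobular markers passed the adjusted threshold, and the part of lobular position in the members' values was not tested. Of the markers of other cells, 6 of 9 for macrophages, 2 of 5 for cholangiocytes, 4 of 8 for stellate cells, 1 of 6 for lymphocytes and 1 of 4 for erythroid cells were above the limit for dim genes, with Ptprc, Epcam, Lrat and Hba-a1 below it. Of these, 1 macrophage marker had a higher and 5 a lower mean in tetraploid cells. Cholangiocyte markers divided into 1 higher and 1 lower, and stellate cell markers into 2 of each. The lymphocyte marker, Cd3e, was lower at -0.21 ± 0.10 (SE), and the erythroid marker, Alas2, higher at 0.12. Pdgfrb, of stellate cells, was lower at -0.24 ± 0.09, the only 1 with an unadjusted p under 0.05 by limma. Its fractions and those of Cd3e did not overlap, where 7.08% of all genes were lower. Eif2s3y, a Y-linked gene, was at 9.98 to 10.23 on the tetraploid arrays and at 10.01 to 10.21 on the diploid arrays. Xist was at 6.31 to 6.47 and 6.27 to 6.42. Among the diploid arrays both were highest on replicate 2. Kdm5d and Uty, also sex-linked, differed by 0.04 ± 0.13 and 0.27 ± 0.14 (SE), and Uty was lowest on diploid replicate 1, at 6.98. For 0 of these 4 genes were tetraploid replicate 3 and diploid replicate 2 both lowest, or both highest, within their fractions. The part of sex in the pattern was not tested.

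Genes listed for the supply of the conjugation reactions differed little between the fractions. Of 13 genes listed for glutathione supply 11 were measured and 10 tested, 4 of them higher and 6 lower on average, with a median difference of -0.04 and 0 at an unadjusted p under 0.05. Gclc, the catalytic subunit that limits glutathione synthesis, differed by -0.09 ± 0.09 (SE), and the methionine adenosyltransferase Mat1a by 0.03 ± 0.07. Of 6 tested genes listed for UDP-glucuronic acid, 1 had a higher mean and 5 a lower one (median difference -0.07). Ugdh, which oxidises UDP-glucose to the donor, differed by -0.07 ± 0.11. The widest difference of this list, -0.20 ± 0.10 (SE), was that of Gusb, which cleaves glucuronides and does not make the donor. Of 7 tested genes for the sulfate donor, 5 had a higher mean and 2 a lower one (median difference 0.04), and the PAPS synthase Papss2 differed by -0.03 ± 0.07. In these 2 lists, as in that for glutathione, 0 genes had an unadjusted p under 0.05, against 6.18% of all genes tested.

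Of 12 tested regulators of these enzymes 11 had a higher mean in tetraploid cells, where 47.8% of all genes did, with a median of 0.09, and 0 had an unadjusted p under 0.05. Nfe2l2, which encodes Nrf2, differed by 0.14 ± 0.17 (SE), the xenobiotic receptors Nr1i2 and Nr1i3 by 0.16 ± 0.13 and 0.07 ± 0.16, and the aryl hydrocarbon receptor Ahr by 0.23 ± 0.30. Among 14 tested genes of other conjugation and hydrolysis enzymes 8 had a higher mean, 6 a lower one and 0 had an unadjusted p under 0.05. Ephx1, the microsomal epoxide hydrolase, was the 1 gene there (7.14%, against 12.3% of all genes tested) whose fractions did not overlap. Its difference was 0.19 ± 0.09 (SE, adjusted p = 0.820 by limma). Nnmt, a methyltransferase of nicotinamide, had the widest difference of that list, -0.49 ± 0.22 (SE), with 10.75, 10.69 and 11.28 in tetraploid cells, against 11.26, 11.83 and 11.11 in diploid cells, and overlapping fractions.

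Carriers that export the conjugates included a pair that differed in opposite directions without passing the threshold. Abcc2, which pumps glucuronide and glutathione conjugates into bile, had 11.44, 11.58 and 11.58 in tetraploid cells, against 11.22, 11.31 and 11.39 in diploid cells. Abcc3, which exports glucuronides towards the blood, had 9.32, 9.36 and 9.28 in tetraploid cells, against 9.69, 9.43 and 9.61 in diploid cells. Neither gene's fractions overlapped, which held for 12.3% of all genes tested. The unadjusted p by limma was 0.0253 for Abcc2 and 0.0186 for Abcc3, and 6.18% of all genes tested were under 0.05. The differences were 0.23 ± 0.08 for Abcc2 and -0.26 ± 0.09 for Abcc3 (SE), with an adjusted p = 0.765 and an adjusted p = 0.757 by limma. Of the 5 carriers tested, 4 were higher and 1 lower on average.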

How the data were processed

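The authors deposited linear probe-set intensities, 1 per array, with RMA named in the submitters' processing notes; its software and version are not given in the sources used. Values were taken to log2. Of 22690 probe sets 64 were controls; of the rest 20380 have 1 symbol in the platform annotation, 691 several and 1555 none. A gene was read from its brightest probe set over 6 arrays, which for 11 members may bind several transcripts, and the 3098 dimmest genes were dropped, leaving 9295. All 39 members matched RefSeq by Entrez identifier, and 0 changed symbol.

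Fractions were compared with limma 3.58.1 in R 4.3.3 (lmFit, eBayes, two-sided, ploidy the only factor) and Benjamini-Hochberg adjustment over all genes tested. The number of arrays limits the precision (median SE 0.095). The procedure was also run on simulated arrays with independent normal scatter, where it recovered 83% of 1.5-fold changes and 6.08% of calls were false. Variation shared between arrays was not simulated, so the run does not show how the procedure performs on these arrays.

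Members named are, per class, the 3 brightest, the 4 with the smallest p, and any with an unadjusted p under 0.05 or fractions that do not overlap; the others were named after their values were seen. From the supply, regulator, carrier and other conjugation lists, genes at an unadjusted p under 0.05 and the 2 brightest were to be named. Of these Cth, Ugp2, Bpnt1, Inmt, Akr1a1, Hnf4a and Abcg2 differed by -0.02, 0.05, 0.03, -0.05, -0.01, -0.02 and 0.01. Gclc, Gusb, Ephx1, Nnmt, Nfe2l2, Nr1i2 and Nr1i3 were added after their values were seen. Members and lists were chosen with earlier results of these data known. Alternatives covered dim genes, probe sets, normalization, variance model, array weights, an offset, the replicate block and each array left out.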

Additional observations from a re-analysis of the deposited data

How the results depend on the processing

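Over 16 alternatives 0 conjugation members passed an adjusted p of 0.05, with a smallest adjusted p of 0.652 (Gstt3, mean of all probe sets of a gene). Of 316 refits of the 20 named genes that have a test, 314 kept their direction, and none passed the adjusted threshold. The exceptions, both without diploid replicate 1, were Ugt2b5 at -0.0054 and Sult1d1 at -0.023. With 1 array left out Ugt2b5 lay between -0.0054 and 0.060 and Sult1d1 between -0.023 and 0.33. Over all genes, 9 passed with the replicate number as a block, against 0 without it, and between 0 and 1 when 1 array was left out (1 without tetraploid replicate 1). At an unadjusted p under 0.05, 369 genes were counted when the dimmest 50% were left out, where fewer genes are tested, and between 378 and 639 when 1 array was left out, against 574.

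The number of members at an unadjusted p under 0.05 and higher in tetraploid cells was 1, and it was 0 with no filter on dim genes, only probe sets not ending in _x_at, _s_at or _a_at, quantile normalization, median centring, the trended robust fit, array weights or the replicate block, and between 0 and 3 when 1 array was left out. The number lower was 2, and 1 with the replicate block, and between 0 and 3 when 1 array was left out. The median difference of all members, 0.02, was 0.00025 with the mean of all probe sets and between 0.0068 and 0.050 when 1 array was left out. That of the sulfotransferases, 0.17, was 0.046 with no filter on dim genes, 0.10 with array weights and between 0.038 and 0.20 when 1 array was left out. The cause of these shifts was not tested.

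The replicate numbers were not taken to pair the samples. The main fit and the overlap readings used no pairing. Any variation shared by arrays of both fractions therefore stays in the SEs, intervals and p-values. Only the replicate number was tried as a block, and the labels give no other pairs. The deviations of same-numbered arrays from their fraction means correlated at 0.57, -0.20 and -0.20 across genes for numbers 1, 2 and 3, and only the arrays numbered 1 correlated best with each other. Tetraploid 2 correlated best with diploid 3, at 0.69, and tetraploid 3, one of the arrays low for many glutathione transferases, with diploid 2, the other, at 0.38. Low intensity limits what could be seen for some members. The Mgst2 probe set, at a mean log2 intensity of 5.45, lay close to the limit for dim genes, 5.06. Those of Ugt2b38 and Ugt2b37, at 5.75 and 6.11, lay further above it. Whether differences were compressed in the brightest probe sets, such as those of Mgst1 and Sult2a2, was not tested.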
